A study of Bos taurus with 8 samples.

Results

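Rumen epithelium carries a set of secreted antimicrobial peptides and defence proteins, and 10 of their genes were followed here. They are the beta-defensins TAP, LAP and DEFB1, the calcium-binding proteins S100A8, S100A9 and S100A12, the iron-handling proteins LCN2 and LTF, the peptidoglycan receptor PGLYRP1 and the salivary protein BPIFA2B. They were chosen by name as genes of this function, with earlier results of these data known. Each had 1 probe among the 15008 on the array, and 8 of the 10 were among the 10236 probes tested, S100A9 and PGLYRP1 being too dim. The samples came from Holstein bulls aged 7.4 ± 0.3 months and weighing 215.2 ± 20.4 kg. They carried a rumen fistula. Each animal was fed 2 diets in turn, 14 days each, with no wash-out between them. The WP diet contained wood kraft pulp in place of 50% of the corn flakes, and the control diet was the unmodified high-grain diet, so both groups received corn flakes. The study used 5 animals. Arrays of calves 21, 23, 24 and 25 were analysed here, 4 for the WP diet and 4 for the control diet. The labels used here do not say which diet a calf received first. The RNA was that of the whole epithelial sample, so fewer cells of a type and less RNA per cell cannot be told apart.

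Beta-defensins are short cationic peptides that disrupt microbial membranes. TAP and LAP were first described in the trachea and tongue of cattle, and their transcripts are induced in epithelium exposed to bacterial products or inflammatory cytokines. S100A8 and S100A9 form calprotectin, which withholds zinc and manganese from microbes, and both are made by neutrophils and by stressed stratified epithelia. A diet rich in rapidly fermented starch lowers rumen pH and is known to disturb the epithelial barrier.

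Beta-defensin genes are similar in sequence, so the probes themselves are shown first, to let a reader see how far each one is separate from its relatives. All probe coordinates come from the design file headers and refer to UMD 3.1. Whether a probe lies in a coding exon or in a UTR was not analysed here. The DEFB1 probe (chr27:5483416-5483475) and the LAP probe (chr27:5125882-5125941) share a run of 16 bases, printed in capitals in bases 6 to 35 of the DEFB1 probe and bases 31 to 60 of the LAP probe, each read 5′ to 3′.
DEFB1: CAGAAACTGTGCCCTTcgacagaacgtcta
LAP: actggatgcggagtCAGAAACTGTGCCCTT
The next pair is set against the same DEFB1 stretch, base by base, and capitals mark a base that is the same there. The TAP stretch is bases 28 to 57 of its probe (chr27:4888406-4888465), with 24 capitals in 30 bases. The DEFB4A stretch is bases 1 to 30 of its probe (chr27:5425402-5425461), with 26.
TAP: CAGAAcgTGcGCCCTTtGACgGAgCGTCTA
DEFB4A: CAGAAACTGcGCCCTTCaACAcAcCGTCTA
Over their best ungapped alignment the DEFB1 and DEFB4A probes had 50 of 55 bases in common (90.9%), and the TAP and DEFB1 probes 29 of 38 (76.3%). Aligned in the same way, the TAP and LAP probes had 30 of 43 bases in common (69.8%), and the TAP and DEFB4A probes 26 of 33 (78.8%). The longest run shared by the TAP and LAP probes was 8 bases. Runs of at least 15 bases shared with any of the 15008 probes occurred for LAP (with DEFB1), DEFB1 (with DEFB4A and LAP), LTF (with HADH) and BPIFA2B (with BPIFA2C), and for none of the other 6 members. The BPIFA2B stretch is bases 1 to 23 of its probe (chr13:63174907-63175522, a span longer than its 60 bases). The BPIFA2C stretch is bases 38 to 60 of its probe (chr13:63094611-63095261). Capitals again mark the 18 of 23 bases that are the same in both.
BPIFA2B: CtGgGATGCCCGCCTGCTGggTc
BPIFA2C: CaGtGATGCCCGCCTGCTGatTg
The probe that the design calls DEFB1 carries accessions that RefSeq now lists under EBD, the enteric beta-defensin, and under DEFB7. It is called the DEFB1 probe below, and its signal cannot be assigned to 1 beta-defensin gene.

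All 8 arrays lay on 1 slide, 4 in each of 2 rows, with 9314 to 11990 probes well above background. The WP array of calf 24 stood apart, with a median negative control signal of 4.06 against 1.20 to 1.90 elsewhere. Its E1A control spots read 40.7 against 1.36 to 1.97. As a check of the tissue label, all 10 basal keratinocyte markers had a probe that was tested, KRT5, KRT14 and KRT15 among them. Of all probes 68.2% were tested. Of 18 suprabasal and cornified keratinocyte markers with a probe, 12 were tested. The WP arrays of calves 21 and 23 and the control arrays of calves 24 and 25 were in row 1, and the other 4 arrays in row 2. A level below is log2 of the processed signal relative to the 75th percentile of that array, and a difference is the WP level minus the control level of the same calf. Levels are not set against each other between probes.

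No member passed the test between diets. In limma, 0 of the 10236 probes had an adjusted p under 0.05 (0%), and the smallest adjusted p was 0.658, which TAP and LAP shared. TAP and LAP also had an unadjusted p under 0.05, as did 179 probes lower on WP (1.75%) and 536 higher on WP (5.24%). Among the 8 tested members, 5 had a mean difference below 0, against 35.6% of all tested probes, and their median difference was -0.57, against 0.09 over all tested probes. That median rested on calf 21, being -0.089 without it. Under quantile scaling 7 of the 8 were below 0. Mean differences below -1, a 2-fold lower level on WP, were measured for TAP, LAP and BPIFA2B, and over all tested probes for 56 (0.547%). No member had a difference above 1, as 110 probes did (1.07%). No member had its 4 WP levels all below its 4 control levels, as 1.19% of tested probes did, or all above them, as 3.65% did. With 4 pairs, an exact test of 1 probe that swaps the diets within calves cannot give a two-sided p below 0.125.

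TAP, the tracheal antimicrobial peptide, had the most negative difference of all 10236 tested probes, a place between 1 and 68 under the alternatives run, and was lower on the WP diet in 4 of 4 calves. Its processed signal was 7.32, 33.9, 109 and 268 on the WP diet in calves 21, 23, 24 and 25, against 2896, 86.6, 768 and 765 on the control diet. Its levels were -4.77, -2.57, -1.39 and 0.19 on WP, against 3.17, -1.73, 1.45 and 1.86 on control. The WP level of calf 25 lay above the control level of calf 23, so the groups overlapped, although the level was lower on WP within every calf. Its differences in the 4 calves were -7.93, -0.84, -2.84 and -1.66, a mean of -3.32 ± 3.18 (SD, n = 4 calves). The 95% interval was -6.41 to -0.23. Intervals here and below come from limma, which draws the spread of a probe towards that of all tested probes. For TAP this made the interval narrower than the 4 differences alone would give. In limma the unadjusted p of TAP was 0.0396 and the adjusted p 0.658. Over all tested probes, 552 (5.39%) were lower in 4 of 4 calves. The size of the mean rested largely on calf 21: without this calf it was -1.78. The WP reading of calf 21 was near background, since the lowest level well above background on that array was -5.34. With the normexp background correction the mean of TAP was -2.31. Within a slide row the WP arrays of 1 pair of calves stand against the control arrays of the other pair, so that value is unpaired and holds differences between calves as well as diets. It was -5.32 in row 1 and -1.32 in row 2.

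LAP, the lingual antimicrobial peptide, had the fourth most negative difference but was lower on WP in 3 of 4 calves. Its levels were 0.59, -1.32, -1.37 and -0.09 on the WP diet in calves 21, 23, 24 and 25, against 6.19, -1.54, 1.44 and 1.77 on the control diet. The control array of calf 21 stood far above the other 7, the control array of calf 23 was the lowest of all 8, and the groups overlapped. The differences were -5.60, 0.22, -2.82 and -1.86, a mean of -2.51 ± 2.41 (SD, n = 4 calves), with a 95% interval of -4.86 to -0.16. The LAP interval was also narrower than its 4 differences alone would give. The limma adjusted p was 0.658 and the unadjusted p 0.0403. Without calf 21 the mean was -1.48. The unpaired value within slide row 1 was -1.97 and within row 2 it was -3.06. TAP and LAP thus had their largest and their smallest size of difference in the same calves, 21 and 23.

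**Figure D1:**
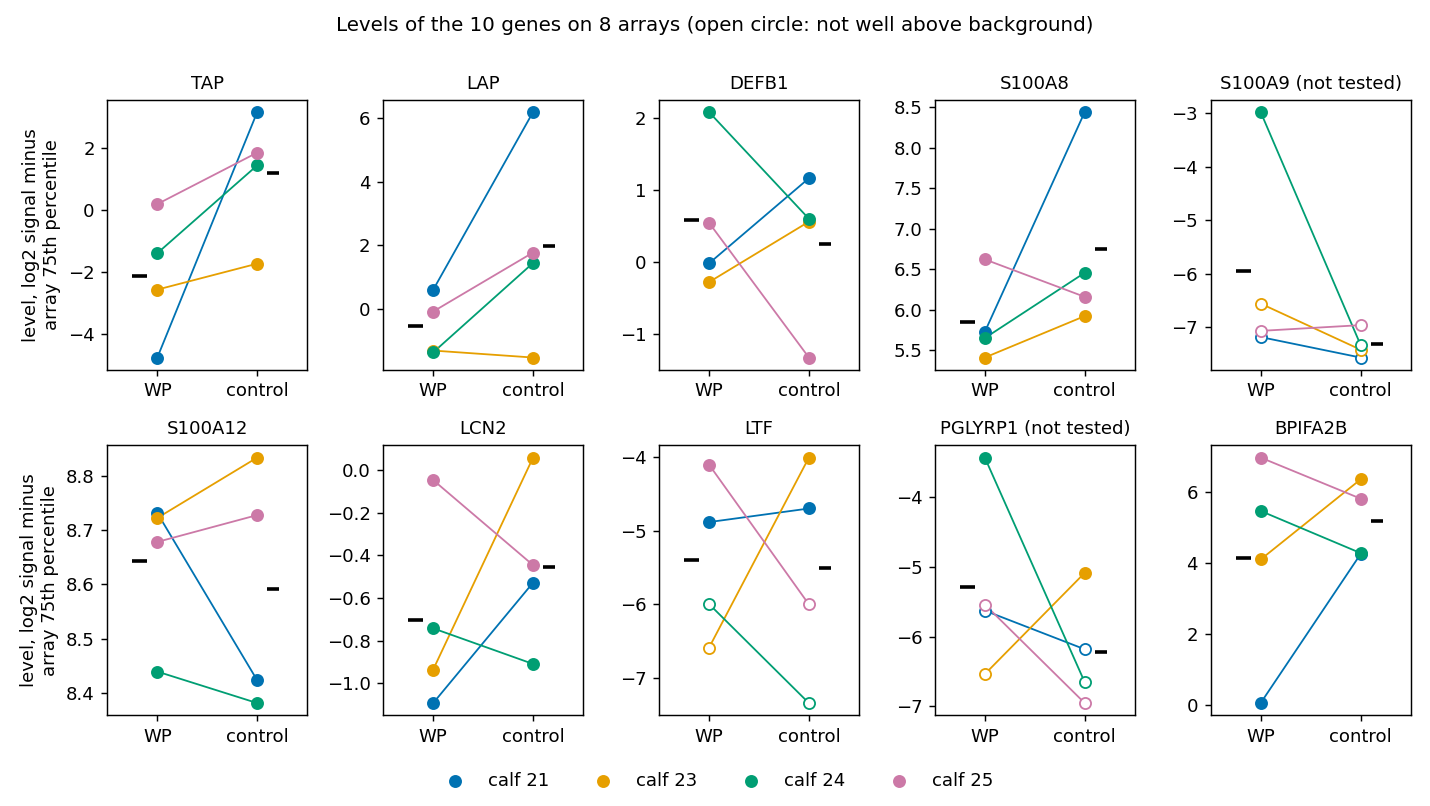
Levels of the members on each of the 8 arrays, as log2 of the processed signal relative to the 75th percentile of the array, with WP left of control, 1 colour per calf, a line joining both arrays of a calf, a black dash for the mean of 4 arrays and open circles for arrays on which the probe was not well above background. The vertical axis differs between genes. TAP is lower on WP in every calf, with differences from -7.93 to -0.84, whereas the differences of S100A12 lie between -0.11 and 0.31.

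The DEFB1 probe ran the other way in 2 of the 4 calves. Its levels were -0.01, -0.27, 2.09 and 0.55 on the WP diet in calves 21, 23, 24 and 25, against 1.17, 0.57, 0.61 and -1.32 on the control diet. They were lower on WP in calves 21 and 23 and higher in calves 24 and 25, with overlapping groups. The mean difference was 0.33 ± 1.57 (SD, n = 4 calves, limma adjusted p = 0.864), with a 95% interval of -1.20 to 1.87. Its sign rested on single calves, being -0.050 without calf 24 and -0.18 without calf 25.

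Of 10 further beta-defensin probes on the array, 5 were tested, and none passed the test in limma. DEFB4A, DEFB5 and DEFB10, genes of peptides first isolated from bovine neutrophils, had the same pattern of signs over the calves as the DEFB1 probe. That makes 3 of the 5, against 10.4% of all tested probes. Similar probes are not separate readings, and the DEFB5 and DEFB10 probes had 41 of 60 bases in common (68.3%). DEFB4A, which shares most of its probe with the DEFB1 probe, had differences of -0.51, -0.21, 1.30 and 1.69 in calves 21, 23, 24 and 25. DEFB5 had differences of -1.09, -0.69, 1.80 and 1.67, and DEFB10 of -3.37, -1.82, 0.60 and 0.48. Their means were 0.57, 0.42 and -1.03, so a common sign pattern went with means of opposite sign. The mean of DEFB5 was -0.04 without calf 24. The remaining tested probes, DEFB at 0.25 and DEFB122 at 0.35, were each higher on WP in 3 of 4 calves. Probes for DEFB7, DEFB122A, DEFB123 and DEFB124 were above background on no array.

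S100A12 was the steadiest member. This gene encodes a calcium-binding alarmin that signals through the receptor RAGE. Its probe (chr3:17165169-17165228) had processed signals of 84583, 85128, 98895 and 95951 on the WP diet in calves 21, 23, 24 and 25, against 110605, 131344, 93967 and 89554 on the control diet. Relative to the 75th percentile of each array the differences were only 0.31, -0.11, 0.058 and -0.050. The mean was 0.052 ± 0.19 (SD, n = 4 calves, limma adjusted p = 0.903), with a 95% interval of -0.27 to 0.38, and its sign turned to -0.038 under quantile scaling. The SD of its level over all 8 arrays was 0.17, below the median of 0.28 over all tested probes, at percentile 22.4.

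S100A8, the calprotectin subunit, had its highest level on the control array of calf 21, as LAP and TAP did. Its levels (chr3:17147825-17147884) were 5.73, 5.41, 5.65 and 6.62 on the WP diet in calves 21, 23, 24 and 25, against 8.44, 5.92, 6.46 and 6.16 on the control diet. It was lower on WP in 3 of 4 calves, and the WP level of calf 25 exceeded 3 of the 4 control levels. The mean difference was -0.89 ± 1.33 (SD, n = 4 calves, limma adjusted p = 0.663), with a 95% interval of -2.21 to 0.42. Without calf 21 it was -0.29.

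S100A9, the partner of S100A8, could not be compared. Its only probe (chr3:17178689-17178748) was designed on an expressed sequence tag. It was well above background on the WP array of calf 24 alone, at a signal of 36.2, and read 1.37 to 2.14 on the other 7. That array also had the high E1A and negative control signals given above, and the part of this in the S100A9 reading was not tested.

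Of 14 other S100 probes, 9 were tested. On WP 4 were lower and 5 higher, and 0 passed in limma. S100A4 was at 0.50, S100A3 at 0.31 and S100A11 at -0.38. S100A3 and S100A4 had all 4 WP levels above all 4 control levels, as did 3.65% of tested probes. S100A1 had differences of -1.54, 1.38, 1.23 and 1.15 in calves 21, 23, 24 and 25, a mean of 0.55 that was 1.25 without calf 21. Under quantile scaling 5 of the 9 were lower.

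**Figure D2:**
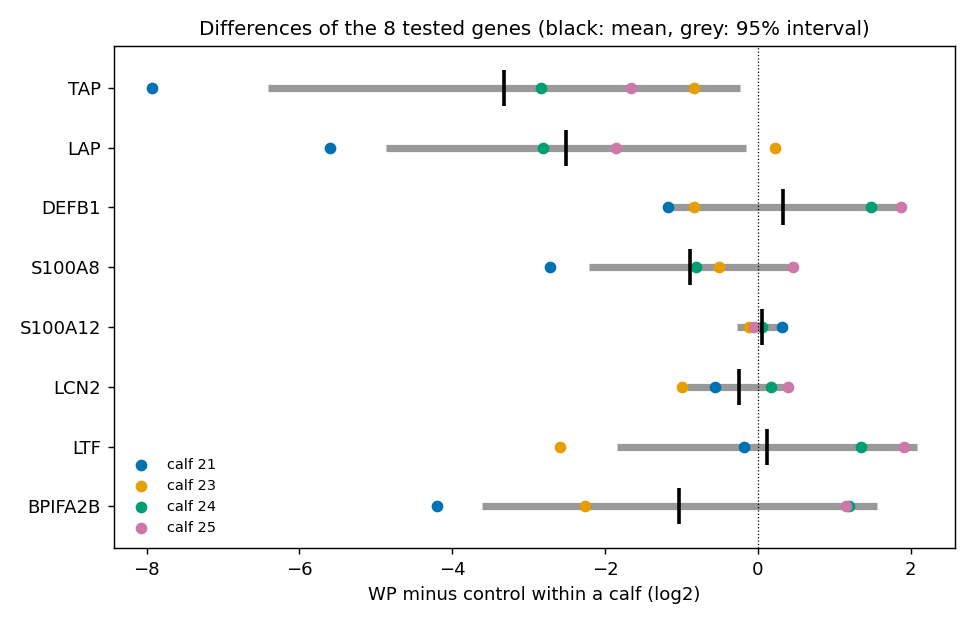
WP minus control difference of the 8 tested members on the log2 scale, with 1 point per calf, a black mark for the mean and a grey bar for the unadjusted 95% interval from limma. The intervals of TAP and LAP lie below 0 before adjustment, and those of the other 6 tested members span 0.

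LCN2, the neutrophil gelatinase-associated lipocalin, binds bacterial siderophores and so limits iron uptake by bacteria. Its processed signals (chr11:98797743-98797802) were 93.2, 105, 170 and 227 on the WP diet in calves 21, 23, 24 and 25, against 224, 299.7, 150.1 and 155 on the control diet. They were lower on WP in calves 21 and 23 and higher in calves 24 and 25. The differences relative to the 75th percentile were -0.57, -0.995, 0.17 and 0.40, a mean of -0.25 ± 0.65 (SD, n = 4 calves, limma adjusted p = 0.762), with a 95% interval of -0.93 to 0.43.

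LTF, which encodes the iron-binding protein lactoferrin, was near background. Its probe (chr22:53554144-53554202) was well above background on 2 of 4 WP arrays, of calves 21 and 25, and on 2 of 4 control arrays, of calves 21 and 23. Signals were 6.75, 2.08, 4.46 and 13.7 on the WP diet, against 12.4, 18.0, 1.73 and 3.29 on the control diet. The differences of -0.19, -2.59, 1.35 and 1.91 gave a mean of 0.12 ± 2.01 (SD, n = 4 calves, limma adjusted p = 0.965), which was -0.49 under quantile scaling and -0.66 under cyclic loess. PGLYRP1, which binds bacterial peptidoglycan, was above background on 1 WP array, calf 24 at 26.4, and on 1 control array, calf 23 at 8.48. Its probe (chr18:53947967-53948026) read 1.70 to 5.04 on the other 6, and it was not tested.

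BPIFA2B belongs to the BPI fold family and encodes a major protein of cattle saliva. Its levels were 0.06, 4.11, 5.48 and 6.98 on the WP diet in calves 21, 23, 24 and 25, against 4.26, 6.37, 4.29 and 5.83 on the control diet. The WP arrays held both the lowest and the highest of the 8 levels. The differences were -4.20, -2.26, 1.19 and 1.16, a mean of -1.03 ± 2.66 (SD, n = 4 calves, limma adjusted p = 0.743), with a 95% interval of -3.61 to 1.56. Without calf 21 it was 0.029. The unpaired value within slide row 1 was -2.97, and within row 2 it was 0.92. BPIFA2C, whose probe shares 15 bases in a row with that of BPIFA2B, had differences of -3.35, -1.48, 0.84 and 0.74 in the same calves, a mean of -0.81. BPIFA2A, another salivary relative, had 0.36, -4.45, 2.93 and 4.90, and was above background on 2 WP and 3 control arrays.

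**Figure D3:**
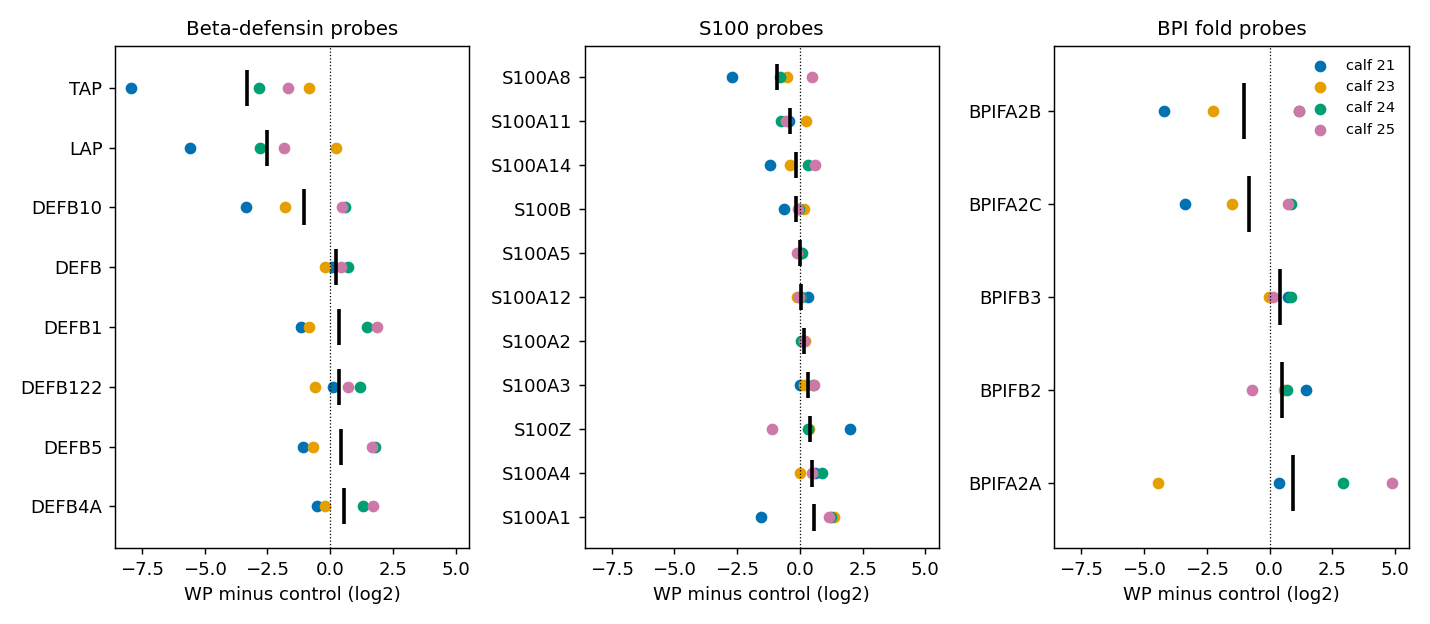
WP minus control differences on the log2 scale, with 1 point per calf and a black mark for the mean, for the tested probes named beta-defensin, S100 and BPI fold. The BPI probe itself is not drawn. DEFB1, DEFB4A, DEFB5, DEFB10, S100A14, BPIFA2B and BPIFA2C lie below 0 in calves 21 and 23 and above 0 in calves 24 and 25. Of all tested probes, 10.4% have these signs.

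The signs of the members over the calves were compared after their values were seen. BPIFA2B, DEFB1, LCN2 and LTF were lower on WP in calves 21 and 23 and higher in calves 24 and 25, which is 4 of the 8 tested members against 10.4% of all tested probes. The opposite pattern was seen in 10.6% of all tested probes. For LTF the signs rest on background readings in calf 24, where neither array was well above background, and on 1 such reading in each of calves 23 and 25. TAP was lower on WP in every calf, LAP in all but calf 23 and S100A8 in all but calf 25, while S100A12 was lower in calves 23 and 25. Over the 8 members the median difference of calves 21, 23, 24 and 25 was -1.95, -0.84, 0.11 and 0.43, with 7, 7, 3 and 3 members below 0.

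This split of the calves is the same as the split of the slide rows, since both arrays of a calf lay in different rows and the WP arrays of calves 21 and 23 were in row 1. In a fit with row beside calf and diet, row 2 minus row 1 was 2.20 for BPIFA2B (limma adjusted p = 0.272), 1.34 for DEFB1 (adjusted p = 0.255), 1.51 for LTF (adjusted p = 0.351) and 0.53 for LCN2 (adjusted p = 0.321). It was 1.07 for TAP (adjusted p = 0.742), 0.72 for S100A8 (adjusted p = 0.549), 0.18 for LAP (adjusted p = 0.952) and -0.047 for S100A12 (adjusted p = 0.888). No probe passed for row, with a smallest adjusted p of 0.231, and 1320 had an unadjusted p under 0.05. Row, the pairs of calves and any diet order they share cannot be told apart.

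Most members varied more over the 8 arrays than the median probe did. As a percentile among all tested probes, the SD of the level was at 99.9 for TAP, LAP and BPIFA2B, at 98.7 for LTF, 96.9 for DEFB1, 96.2 for S100A8 and 70.7 for LCN2. LTF was well above background on only 4 of the 8 arrays, so its SD includes background readings. Of the 8 tested members only S100A12, at 22.4, was below the median probe.

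Other antimicrobial and secreted defence genes were read from a list of 89, of which 66 had a probe and 35 were tested. On the WP diet 17 were lower and 18 higher, with a median difference of 0.021, and 0 passed in limma. The split depended on scaling, with 25 lower and 10 higher under quantile scaling. Of the 8 genes with the smallest unadjusted p, 7 were lower on WP, each with a limma adjusted p of 0.658.

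Lysozymes, which cleave bacterial cell walls, were among these. LYZ1 had levels of 3.01, 5.07, 3.65 and 5.10 on the WP diet in calves 21, 23, 24 and 25, against 6.46, 6.98, 5.28 and 5.31 on the control diet. All 4 WP levels were below all 4 control levels, as for 122 tested probes (1.19%). The mean difference of LYZ1 was -1.80 ± 1.33 and that of LYZ2 was -1.82 ± 1.77 (SD, n = 4 calves), and a second LYZ1 probe had -1.53. LYZ2 was higher on WP in calf 25, by 0.56, and the second LYZ1 probe in calf 24, by 0.18. For both of these probes the groups overlapped. The LYZ probe was above background on 4 WP and 3 control arrays. Its differences were -3.39, 0.68, 1.39 and 1.49 in calves 21, 23, 24 and 25. Their mean was 0.046, and it was -0.24 under quantile scaling and 1.19 without calf 21. These genes are close copies of each other, so which of them a probe reads is uncertain.

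SAA3, an acute-phase protein, had a mean difference of -2.48 ± 1.48 (SD, n = 4 calves). All its WP levels were below all its control levels, as for 1.19% of tested probes. Its signals were 5.15, 14.3, 15.3 and 18.3 on WP, against 136, 28.2, 109 and 99.7 on control. It was above background on 2 WP and 4 control arrays, and with the normexp background correction the difference was -0.78. LBP, which presents lipopolysaccharide to CD14, had -1.10 ± 0.93. LGALS3, a galectin, had -0.89 ± 0.47, and the cysteine protease inhibitors CST6 and CST3 had -0.76 ± 0.47 and -0.36 ± 0.10. HAMP, the iron-regulating hormone hepcidin, was the 1 of the 8 with a positive value, 0.63 ± 0.49, and turned to -0.05 under quantile scaling.

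Receptors, cytokines and regulators that act upstream of these genes gave 38 tested genes of 54. On WP 25 were lower and 13 higher, with a median difference of -0.08 and 0 past the test. With normexp the counts were 19 and 19. The 4 with the smallest unadjusted p were epithelial cytokines and a receptor: IL36G at -1.70, IL36A at -1.57, IL1A at -1.43 and IL22RA1 at -1.19, each lower on WP in 4 of 4 calves, with limma adjusted p of 0.658.

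**Figure D4:**
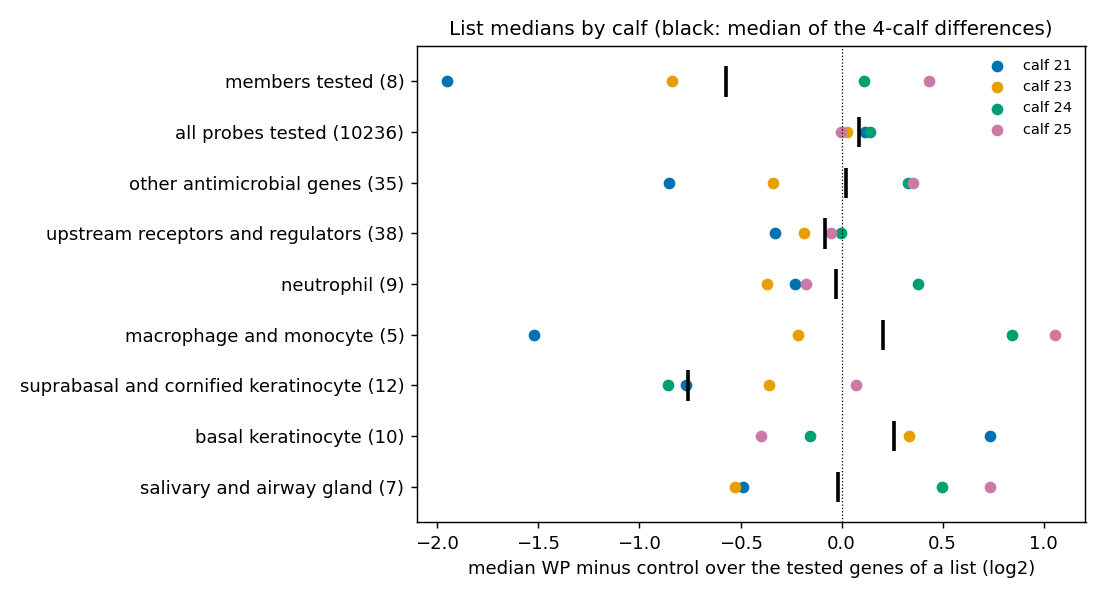
Median WP minus control difference over the tested genes of each list, on the log2 scale, with 1 point per calf and a black mark for the median of the mean differences. The number of tested genes stands in brackets. The suprabasal and cornified keratinocyte markers have a median of -0.76 and the members of -0.57, and the medians of the other lists lie between -0.08 and 0.26.

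Markers of the cells that could supply these transcripts were read in the same way. Suprabasal and cornified keratinocyte markers were lower for 11 of 12 tested genes, against 35.6% of all tested probes. Their median was -0.76, against 0.09 over all tested probes, and 0 passed the test in limma. Without calf 24 these markers gave 9 lower and 3 higher. Their summed signal, each array scaled by its 75th percentile, was 258 to 433 on WP against 444 to 549 on control, with no overlap. Among single tested probes, 1.19% had all WP levels below all control levels. Bright probes weigh most in the sum, and its log2 difference was -1.09, -0.30, -0.58 and -0.039 in calves 21, 23, 24 and 25. IVL, a cornified envelope precursor, had -1.07, CALML5 -1.07, SPINK5 -0.94 and KRT10 0.50, while LOR and KLK7 were above background on no array. Basal keratinocyte markers gave 3 lower and 7 higher, with sums of 206 to 342 on WP against 205 to 299 on control. KRT14 was at -0.49, CDH3 at -0.61, TP63 at 0.32 and DST at 0.42, which was -0.13 under quantile scaling. In calves 21, 23, 24 and 25 the suprabasal median was -0.77, -0.36, -0.86 and 0.07. The part of the suprabasal difference in the values of TAP, LAP and S100A8 was not tested.

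Neutrophil markers gave 9 tested genes of 30, 5 lower and 4 higher on WP, with sums of 48.4 to 65.6 on WP against 37.1 to 59.0 on control. With normexp 3 were lower and 6 higher. The sums weigh bright probes most, and TREM1, with levels of 4.54 to 5.75, was a large part of them. MMP9, ITGAM, ELANE, OLFM4 and NCF4 were above background on no array. CXCL8, a neutrophil chemoattractant that epithelium also makes, was above background on 1 WP and 4 control arrays, with a mean difference of -2.69 ± 1.90 (SD, n = 4 calves) that was -0.45 with normexp. TREM1 had 0.37 and CSF3R 0.32, which was -0.33 under quantile scaling. Macrophage markers gave 5 tested genes of 14, with sums of 3.04 to 6.13 on WP against 3.21 to 8.72 on control. Their median was 0.20, and -0.19 under quantile scaling. CD14 was at -0.23. AIF1 was at -0.34, and 0.28 without calf 21. CD68 was at 0.23, and 0.0031 without calf 25. The macrophage median of calves 21, 23, 24 and 25 was -1.52, -0.22, 0.84 and 1.06, the same signs as BPIFA2B, DEFB1, LCN2 and LTF, and its part in their values was not tested.

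Salivary and airway gland markers bear on BPIFA2B, since saliva reaches the rumen. Of 7 tested genes, 4 were lower and 3 higher on WP (3 and 4 with normexp), with sums of 97.9 to 547 on WP against 178 to 405 on control. Bright probes such as BPIFA2C weigh most in these sums. PIP, a secretory gland protein, had differences of -1.90, -2.15, 0.36 and 1.15 in calves 21, 23, 24 and 25, the same signs as BPIFA2B. AQP5, BPIFA2C and SCGB1A1 also had these signs, which makes 4 of the 7, against 10.4% of all tested probes. BPIFA2C is a relative of BPIFA2B with a similar probe, so it is not a separate gland marker here. AMY2B was at 0.68, and 0.0088 without calf 21. LPO was at -0.34, and STATH, ODAM and CA6 were above background on no array. The part of gland RNA or saliva in the BPIFA2B values was not tested.

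The genes whose levels tracked TAP most closely over the 8 arrays, by Pearson r, were IGFBP4 (r = 0.965), CCT6A (0.963), TIMM22 (0.957), PBXIP1 (0.956) and PSMD1 (0.950). For S100A12, taken in place of S100A9, they were BCKDHB (0.985), TMEM242 (0.966), MNAT1 (0.960), ARRDC1 (0.952) and BECN1 (0.942). These are the highest of the values over all tested named genes, and the arrays share a slide, calves and diets.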

How the data were processed

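Rumen epithelium RNA was measured on 8 single-colour Agilent arrays (Cy3, 500 ng of total RNA per the labels), and the deposited files hold spot intensity after the scanner software's background correction. Per the file headers the software was Feature Extraction 11.0.1.1 on design 072598, and per the submitters' processing notes it was 9.5. The authors also deposited a table of log2 values. Compared with the scanner signals, each column was log2 of the processed signal minus a constant per array (slopes of 0.99998 to 1, medians of -3.07 to -2.26), so scale, centring and direction were settled.

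After 536 control spots and 97 outlier spots were left out, log2 processed signals were averaged per probe and the 75th percentile of the array was subtracted. A probe was tested where at least 4 of 8 arrays had it well above background (10236 of 15008, 68.2%). No spot was saturated. The number of arrays limits the precision. Probes were named through RefSeq's ARS-UCD2.0 table, from which no coordinate was taken. Accessions named 11682 probes, symbols 2676 and older symbols 42, while 608 kept the design's name.

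The two-sided test was limma's moderated fit (version 3.58.1, R 4.3.3), adjusted by Benjamini-Hochberg over all tested probes, with calf as a block because the animals received both diets. Deviations of same-numbered arrays correlated at 0.00840 to 0.195. The procedure was tested on simulated data. Beside the members, the genes named are the 8 (other antimicrobial genes) or 4 (each other list) of smallest unadjusted p, and the 5 most like TAP and S100A12; family probes are named beside these, and 1 gene that this rule names is not reported here. The members and the lists were chosen with earlier results of these data known. Alternatives were quantile scaling, cyclic loess, normexp background correction (offset 50), the authors' table, other filters, slide row, no block and leaving out each calf.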

Additional observations from a re-analysis of the deposited data

Results flagged for a closer look

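S100A9 on the WP array of calf 24 stood apart from the other 3 WP arrays. Its level there was -2.98, against -7.18 to -6.56 on the others, and the gap was 0.851 of the range, above Dixon's 95% critical value for 4 samples. It was 1 of 30 groups of 4 tested in this way, and chance flags about 1 in 20. The E1A control spots of that array read 40.7.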

How the results depend on the processing

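Under all 14 alternatives 0 probes passed an adjusted p of 0.05, and without the replicate block also 0. The median difference over the tested members ranged from -0.91 to -0.089 when each calf was left out, was -0.57 without the replicate block, and was -0.098 with no filter on dim probes. TAP, LAP and S100A8 kept their direction under every alternative run: TAP from -5.32 to -1.32, LAP from -3.42 to -1.48 and S100A8 from -1.35 to -0.29, with limma adjusted p from 0.346 to 0.904, 0.938 and 0.939. The count of members lower in every remaining calf was 1 to 2 when a calf was left out, being 2 without calf 23 or 25. Signs turned for S100A12 (-0.038 with quantile scaling, -0.070 within slide row 2, -0.034 without calf 21), DEFB1 (-0.050 without calf 24, -0.18 without calf 25), LCN2 (0.00047 without calf 23), BPIFA2B (0.92 within slide row 2, 0.029 without calf 21) and LTF (-0.49 with quantile scaling, -0.66 with cyclic loess, -0.70 within slide row 2, -0.29 without calf 24, -0.48 without calf 25), and the cause was not tested. With each calf left out, the other end of the range was 0.84 for DEFB1, 0.11 for S100A12, -0.46 for LCN2, 1.02 for LTF and -1.77 for BPIFA2B. Quantile scaling moved the median of all tested probes to -0.013, against 0.087, and the probes with an unadjusted p under 0.05 to 333 lower and 195 higher, against 179 and 536. Averaging the probes of a gene gave nothing further, since each member has 1 probe. LTF did not pass the filter of 8 of 8 arrays. Signals near background limit LTF, PGLYRP1 and S100A9.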
